A study of Canis lupus familiaris with 36 samples.

Results

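The AS libraries described here come from CLBL-1 cells kept with 5 µM AS-605240 (AS) for 24 h or 72 h. CLBL-1 is an established dog cell line, grown from the malignant B cells of a large-cell lymphoma. The 6 libraries were chosen by their labels, 1 for each of 3 passages of the line (p121, p126 and p128) at each incubation time, out of 36 libraries in the series. The other cells of the series received the solvent DMSO, 1 µM Ibrutinib (Ibr) or both inhibitors (Ibr + AS), also for 24, 48 or 72 h, in the same passages. The inhibitors were dissolved in DMSO, and the control cells received the amount of DMSO of the combined treatment. The amount of solvent in the AS cells is not given in the sources used here. All groups are 1 cell line, and passages stand in for biological replicates. The p-values therefore rest on the spread of libraries within this line. It is the spread left after mean differences between passages were taken out, estimated over all groups of the fit together.

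AS-605240 is an inhibitor of phosphoinositide 3-kinases (PI3K) with a preference for PIK3CG, a catalytic subunit that produces the membrane lipid PIP3 and thereby recruits AKT. In B cells, PI3K acts downstream of the B-cell receptor and feeds into mTOR complexes, which control growth, protein synthesis, sterol synthesis and autophagy, while FOXO factors are held out of the nucleus. Ibrutinib blocks BTK, another kinase of the same receptor pathway. The comparison of 72 h with 24 h inside AS asks how the transcriptome of inhibitor-treated cells moved over this period, and the same comparison in DMSO cells gives the movement of control cells.

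Poly-A RNA was sequenced, and between 10859697 and 12345023 reads were counted on genes in the AS 72 h libraries, against 11476931 to 12816887 in the AS 24 h libraries. At this depth, 3 reads corresponded to at most 0.276 CPM (reads scaled to library size) in an AS library. Of the 5 B-cell markers examined, NFAM1 was at 0 in all 6 libraries, and the summed level of the list lay between 4229 and 4569 CPM at 24 h and between 3954 and 4732 CPM at 72 h. The 12 markers of other cell types summed to 7.05 to 8.63 CPM at 24 h and to 8.50 to 10.2 CPM at 72 h, and IL2RB and TREM2 were at 0 in all 6 libraries. Each of the 6 libraries had its nearest library, by distance on log2 CPM over 10744 genes, within its own group. The AS 24 h library of passage p126 and the AS 72 h library of that passage fell into different sequencing runs, as inferred from the table's header, whereas both libraries of passage p121 were in the first run and both of passage p128 in the second. The comparison without passage p126 is thus the comparison within runs. The harvest day of the passage p128 cells at 72 h in the study's sample sheet does not follow from the other days of that passage, and for the genes named below at a mean of at least 1 CPM, a call of the change in AS that was lost without passage p128 is stated as such.

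Between 24 h and 72 h with AS, 177 genes rose and 44 fell as differentially expressed genes (DEGs), which needs a Benjamini-Hochberg adjusted p of at most 0.05 in edgeR's quasi-likelihood test together with a log2 fold change (FC) of more than 1 in size. These 221 DEGs are 1.18% of the 18670 genes tested, 0.948% for those that rose and 0.236% for those that fell. By the adjusted p alone, 733 genes rose (3.93%) and 375 fell (2.01%), which makes 5.93% of the genes tested. A test against the fold-change limit itself (glmTreat) left 32 of the 221, 29 that rose and 3 that fell. The levels of the 24 h and 72 h libraries did not overlap for 212 of the 221 DEGs, against 21% of all genes tested. All genes tested include 5572 with at most 3 reads in each of these libraries. Of the 221, 220 moved in the same direction in all 3 passages, for which no share over all genes is at hand. The DEGs were chosen by these same libraries, so both counts follow largely from the choice and are a description. Within sequencing runs, without passage p126, 179 DEGs were found, and 145 of them were among the 221. Genes called without 1 passage and then followed in that passage moved in the called direction for 91.7% of 254 genes in passage p121, 97.8% of 179 in passage p126 and 98.9% of 186 in passage p128. Their median change in the passage left out was 1.09 ± 0.082 on the log2 scale (SD, n = 3 passages). It was 0.999, 1.13 and 1.15 for passages p121, p126 and p128. In DMSO cells the median change of the same genes was larger each time, at 1.16, 1.48 and 1.38. The follow-up thus shows a change with time that control cells had too.

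Only genes whose identifier could be paired with a symbol are named, which are 1068 of the genes tested, and 8 of these were DEGs (0.749%). Among the paired genes, 44 rose (4.12%) and 28 fell (2.62%) by the adjusted p alone, 6.74% in all, close to the share over all genes tested. The paired genes are therefore a small sample of the change with time, and the DEGs with the largest changes mostly carry no symbol here. Of the paired genes that passed in AS, 57 also passed in the same direction in DMSO, where 26.7% of all genes tested passed. The change of 13 differed between AS and DMSO by the adjusted p. The changes named below are thus changes with time in AS cells, most of which were found in control cells too. The levels given below are CPM after TMM scaling, always in the order of passages p121, p126 and p128, and changes are log2 FC of 72 h over 24 h. Counts of list members that rose or fell are by the adjusted p alone. Over all genes tested, 3.93% rose and 2.01% fell in AS, and 13.8% rose and 12.9% fell in DMSO. These shares include the many genes with hardly any reads, whereas most lists consist mainly of genes with more reads. Shares over all genes tested are therefore a low yardstick for most lists.

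The strongest rise of a paired DEG was that of P4HA2 (ENSCAFG00000000824), a prolyl 4-hydroxylase that matures collagen in the endoplasmic reticulum and that hypoxia induces in many cells. Its level was 2.46, 1.70 and 2.44 CPM at 24 h and 19, 12.2 and 10.1 CPM at 72 h. The lowest 72 h library thus lay far above the highest 24 h library, and the gene rose 6.18-fold (log2 FC 2.63 ± 0.21 SE, adjusted p = 1.47e-16). In DMSO cells P4HA2 moved from 2.83, 1.72 and 1.78 CPM to 12.3, 13.1 and 8.71 CPM, a log2 FC of 2.42 (adjusted p = 1.08e-15), and the changes of AS and DMSO cells differed by 0.21 ± 0.32 SE, adjusted p = 0.88 (95% interval -0.458 to 0.880). P4HA2 was the member that passed the test among 8 hypoxia-responsive genes. CITED2 and PLIN2, the members of that list with the most reads, had log2 FC of 0.12 and 0.067 in AS and did not pass.

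Of the genes of sterol synthesis and its control, 3 rose with AS over this time. ACAT2 (ENSCAFG00000000720), the cytosolic thiolase that forms acetoacetyl-CoA at the entry of the mevalonate pathway, stood at 200.2, 183 and 169 CPM at 24 h and at 430, 353 and 394 CPM at 72 h. The groups were well apart, and ACAT2 rose 2.13-fold (log2 FC 1.09 ± 0.093 SE, adjusted p = 3.77e-18). SQLE, the squalene epoxidase that feeds the sterol ring, was at 527, 571 and 535 CPM and then at 1176, 926 and 895 CPM. It rose 1.83-fold (log2 FC 0.87 ± 0.10 SE, adjusted p = 9.43e-12), below the DEG limit of the fold change. SREBF2, the transcription factor that drives this pathway, went from 777, 731 and 722 CPM to 941, 996 and 1005 CPM without overlap (log2 FC 0.40 ± 0.09 SE, adjusted p = 0.00097), but without passage p128 its adjusted p was 0.0811. Of 18 genes of sterol and lipid metabolism, these 3 rose and 0 fell, and the median over the list was 0.177, against a median of -0.00081 over all genes tested. A rise was called for 3.93% of all genes tested in AS. In DMSO cells 8 of the 18 rose and 2 fell, against 13.8% and 12.9% of all genes tested. None of the 3 passed the test of the difference between AS and DMSO, which was -0.078 for ACAT2 (95% interval -0.350 to 0.193), 0.29 for SQLE (0.00436 to 0.574) and -0.025 for SREBF2 (-0.288 to 0.239).

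**Figure D1:**
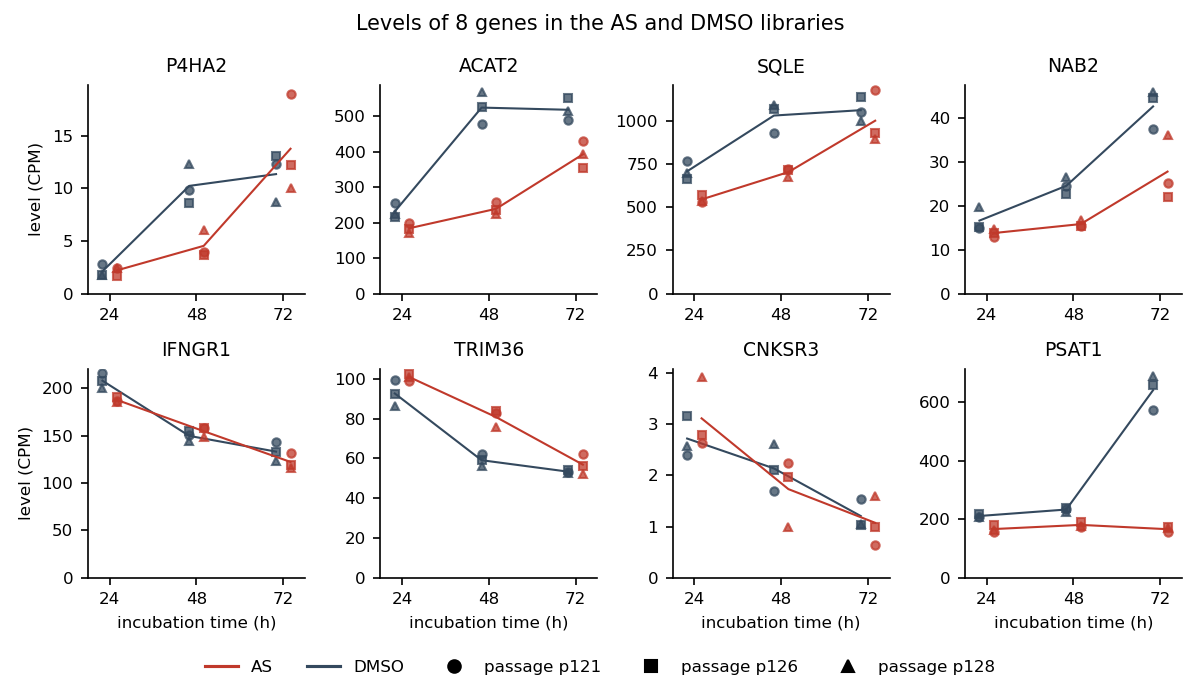
Level (CPM after TMM scaling, y axes from 0) against incubation time (h) for 8 genes in AS cells (red) and DMSO cells (dark blue). Points are single libraries, with their shape giving the passage, and lines join the group means of 3 libraries. P4HA2, ACAT2, SQLE and NAB2 are higher at 72 h than at 24 h in both treatments, IFNGR1, TRIM36 and CNKSR3 are lower, and PSAT1 overlaps between 24 h and 72 h in AS while it is between 575 and 689 CPM in DMSO at 72 h.

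The other 3 paired DEGs that rose had few reads. SEPTIN3, a GTPase of the septin family known mainly from neurons, had 9, 6 and 7 reads at 24 h and 20, 21 and 16 reads at 72 h (log2 FC 1.38 ± 0.38 SE, adjusted p = 0.011). TPH2, the neuronal tryptophan hydroxylase, was at 0.935, 1.24 and 0.959 CPM and then at 2.38, 1.97 and 2.47 CPM (log2 FC 1.12 ± 0.33 SE, adjusted p = 0.0223), and it is itself 1 of the 12 markers of other cell types. ALDH8A1, an aldehyde dehydrogenase, was at 1.19, 1.01 and 1.31 CPM and 2.28, 2.96 and 2.23 CPM (log2 FC 1.09 ± 0.30 SE, adjusted p = 0.0108). In DMSO cells the log2 FC was -0.55 for SEPTIN3, -0.16 for TPH2 and 2.31 for ALDH8A1. For all 3 genes the AS groups did not overlap, yet each call in AS rests on few reads. Without passage p126 the adjusted p was 0.204 for SEPTIN3 and 0.274 for ALDH8A1, and TPH2 no longer passed without passage p121 or without passage p128.

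Among immediate early genes and MYC-MYB factors, 2 of 9 rose, against 3.93% of all genes tested. NAB2, a corepressor of EGR factors, was at 12.8, 13.7 and 14.7 CPM and then at 25.2, 22 and 35.96 CPM (log2 FC 1.00 ± 0.13 SE, adjusted p = 8.62e-10). IER3, a stress-inducible regulator of survival, went from 7.65, 6.28 and 6.80 CPM to 9.68, 10.4 and 12.8 CPM (log2 FC 0.67 ± 0.20 SE, adjusted p = 0.0424), and did not pass without passage p128. ATF4, the member with the most reads, had a log2 FC of 0.25, MYC of 0.23 and EGR1 of 0.63, and none of these passed. In DMSO cells 6 of the 9 rose, against 13.8% of all genes tested.

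Survival and p53 genes with a rise were BCL2, an inhibitor of apoptosis, and MDM2, the ubiquitin ligase of p53. They are 2 of 11 on that list, against 3.93% of all genes tested. BCL2 was at 20.99, 20.1 and 22.1 CPM at 24 h and at 27.3, 28.6 and 27.8 CPM at 72 h (log2 FC 0.41 ± 0.12 SE, adjusted p = 0.0185). MDM2 was at 162, 166 and 165 CPM and then at 233, 188 and 182 CPM (log2 FC 0.29 ± 0.09 SE, adjusted p = 0.0299). Both changes are small. BCL2 did not pass without passage p126 or p128, and MDM2 not without passage p121 or p128. BAG6 and DAPK1, the members with the most reads, had log2 FC of -0.12 and -0.16. In DMSO cells 3 of the 11 rose and 3 fell, against 13.8% and 12.9% of all genes tested.

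Lysosome and autophagy genes that rose were IGF2R (log2 FC 0.57), the receptor that sorts acid hydrolases, NEU1 (0.40), a lysosomal sialidase, and SQSTM1 (0.35), the autophagy adaptor p62. They are 3 of 19 with 0 that fell, where 3.93% of all genes tested rose and 2.01% fell. In DMSO cells 6 of the 19 rose and 4 fell, against 13.8% and 12.9% of all genes tested. Without passage p128, IGF2R passed in AS, and NEU1 and SQSTM1 did not. VPS28 and CD63, the members with the most reads, had 0.026 and -0.0066. WFS1, a membrane protein of the endoplasmic reticulum, rose by 0.65 (adjusted p = 9.88e-08) as 1 of 16 genes of folding and export. In B-cell receptor and NF-kB signalling, NFATC1, a transcription factor activated by calcium signals, rose by 0.40, DEF6, an adaptor for RAC activation, fell by 0.28, and the other 19 members did not pass. The call of DEF6 was lost with any 1 of the passages left out, and that of NFATC1 without passage p126 or p128. RAC2 and PTK2B, which had the most reads, stood at -0.17 and -0.22.

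The PI3K, mTOR and FOXO genes that could be named showed 1 call among 16, where 5.93% of all genes tested had a call. PRR5, a subunit of mTOR complex 2, was at 135.7, 119 and 118 CPM at 24 h and at 151, 171 and 190 CPM at 72 h (log2 FC 0.46 ± 0.095 SE, adjusted p = 0.000311). In DMSO cells its level was 140, 158 and 161 CPM and then 144, 148 and 157 CPM, and the difference between both changes was 0.49 ± 0.13 SE, adjusted p = 0.00873. The rise in AS did not pass without passage p128, where its adjusted p was 0.194. INPP5D, the phosphatase that removes PIP3, had the most reads of the list and a log2 FC of 0.013 (95% interval -0.188 to 0.213). It was followed by PI4KA with -0.089, and PIK3R1, a regulatory subunit of PI3K, had -0.16. FBXO32, a FOXO target, was at a mean of 0.802 CPM and could not be judged.

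Fewer genes fell, and CNKSR3 and SERPINB2 were the paired DEGs among them whose mean reached 1 CPM. CNKSR3, a scaffold protein of RAS and ion channel regulation, was at 2.63, 2.79 and 3.92 CPM at 24 h and at 0.639, 0.985 and 1.59 CPM at 72 h (log2 FC -1.503 ± 0.30 SE, adjusted p = 0.000138). SERPINB2, an inhibitor of urokinase, was at 1.96, 2.56 and 2.18 CPM and then at 0.913, 0.903 and 1.12 CPM (log2 FC -1.18 ± 0.31 SE, adjusted p = 0.00729), and it did not pass without passage p126. The AS groups of each gene did not overlap. In DMSO cells the log2 FC was -1.14 for CNKSR3 and -0.18 for SERPINB2. ENPP3 was also a DEG that fell, at a mean of 0.245 CPM.

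Below the fold-change limit, the genes that fell included receptors, enzymes and nuclear proteins, chosen for mention after their values were seen. IFNGR1, a chain of the interferon gamma receptor, was at 186, 191 and 185 CPM at 24 h and at 132, 119 and 115 CPM at 72 h (log2 FC -0.62 ± 0.092 SE, adjusted p = 1.12e-07). The ubiquitin ligase TRIM36 was at 99.2, 103 and 101.2 CPM and then at 62.3, 56.2 and 52.2 CPM (log2 FC -0.83 ± 0.10 SE, adjusted p = 2.92e-11). A4GALT, which makes the glycolipid Gb3 known on germinal centre B cells as CD77, was at 5.78, 5.58 and 6.71 CPM and 3.56, 2.71 and 3.83 CPM (log2 FC -0.84 ± 0.23 SE, adjusted p = 0.0133). None of these 3 genes had overlapping groups, though A4GALT did not pass without passage p126. NFIB, a transcription factor, fell with a log2 FC of -0.77, LTA, the cytokine lymphotoxin alpha, with -0.43, HMGA1, an architectural chromatin protein, with -0.34, TXNRD1, a thioredoxin reductase, with -0.32, and AZIN1, an inhibitor of antizyme, with -0.37. Without passage p128, NFIB passed, and LTA, HMGA1, TXNRD1 and AZIN1 did not. HMGA1 did not pass without passage p121 either, nor TXNRD1 and AZIN1 without passage p126.

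Of the genes that rose below the fold-change limit, and likewise chosen after their values were seen, FAM118A was at 69.0, 72.2 and 70.2 CPM and then at 141, 128.3 and 117 CPM (log2 FC 0.86 ± 0.10 SE, adjusted p = 1.44e-12). KIAA0930 was at 62.8, 63.5 and 65.5 CPM and 109, 110 and 111 CPM (log2 FC 0.78 ± 0.10 SE, adjusted p = 1.64e-10). Both were apart between the groups in every passage. UST, a sulfotransferase of glycosaminoglycans, had a log2 FC of 0.72, ADAMTS2, a procollagen protease, of 0.71 and PTCH1, the Hedgehog receptor, of 0.66.

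Larger changes than those of the paired genes belonged to identifiers with no symbol, and 2 in each direction are given, the strongest of those with a mean of 1 CPM or more that moved the same way in every passage. ENSCAFG00000014490 went from 1.87, 1.94 and 1.22 CPM to 43.1, 31.2 and 30.6 CPM (log2 FC 4.37 ± 0.32 SE, adjusted p = 1.25e-09), and ENSCAFG00000016138 from 0.340, 0.310 and 0.174 CPM to 8.40, 4.84 and 4.54 CPM (log2 FC 4.36 ± 0.50 SE, adjusted p = 5.85e-07). ENSCAFG00000032358 fell from 2.55, 3.80 and 3.58 CPM to 0.183, 0.164 and 0.319 CPM (log2 FC -3.84 ± 0.50 SE, adjusted p = 4.49e-07), and ENSCAFG00000015819 from 6.37, 11.1 and 8.63 CPM to 0.731, 0.903 and 1.20 CPM (log2 FC -3.18 ± 0.40 SE, adjusted p = 8.41e-06). ENSCAFG00000016138 at 24 h and ENSCAFG00000032358 at 72 h lay near the level of 3 reads, so the sizes of their changes are uncertain. All 4 identifiers changed in the same direction in DMSO cells, with log2 FC of 4.58, 3.50, -2.53 and -1.66.

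The 48 h libraries place most of the rise in the later interval. From 24 h to 48 h with AS, 9 genes were DEGs (0.0482% of the genes tested), 2 of which rose (0.0107%) and 7 fell (0.0375%), and from 48 h to 72 h there were 91 (0.487%), 84 of which rose (0.45%) and 7 fell (0.0375%). The intervals share the 48 h libraries, and the first of these counts was 24 without passage p121. Over the 177 DEGs that rose between 24 h and 72 h, the median change was 0.414 in the earlier and 0.985 in the later interval. Over the 44 that fell, the change in the direction of the fall was 0.759 and 0.642. ACAT2 illustrates a late rise, with 257, 235 and 225 CPM at 48 h, whereas IFNGR1, at 158, 158 and 148 CPM, was about midway. For 195 of the 221 DEGs both intervals went in the called direction. The DEGs were chosen by the change over both intervals together, with the same 24 h and 72 h libraries. That count and the medians of the 2 intervals thus follow in part from the choice and are a description.

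Set beside the same comparison in DMSO cells, which shares no library with that in AS, the AS comparison gave fewer DEGs. DMSO cells showed 1076 DEGs between 24 h and 72 h (5.76% of the genes tested), 827 of which rose (4.43%) and 249 fell (1.33%). Of the 221 AS DEGs, 147 (66.5%) were DEGs in DMSO too, all in the same direction, and these are 13.7% of the DMSO DEGs. The share was 73.4% for the AS DEGs that rose and 38.6% for those that fell. The median change of the 177 genes that rose was 1.36 in AS, for which they were chosen, and 1.51 in DMSO, and that of the 44 that fell was -1.37 in AS and -0.951 in DMSO. With genes at or under 3 reads in every library of a group held at their bound, the medians in the direction of the AS change were 1.32 and 1.48 for the genes that rose and 1.29 and 0.880 for those that fell. Across 10744 genes at a mean of at least 1 CPM, the changes of AS and DMSO cells correlated with a Pearson r of 0.603 and a Spearman rank coefficient of 0.507, and their SD was 0.337 in AS and 0.548 in DMSO. Genes are not independent replicates, and AS and DMSO libraries of the same passage and time mostly share the sequencing run.

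**Figure D2:**
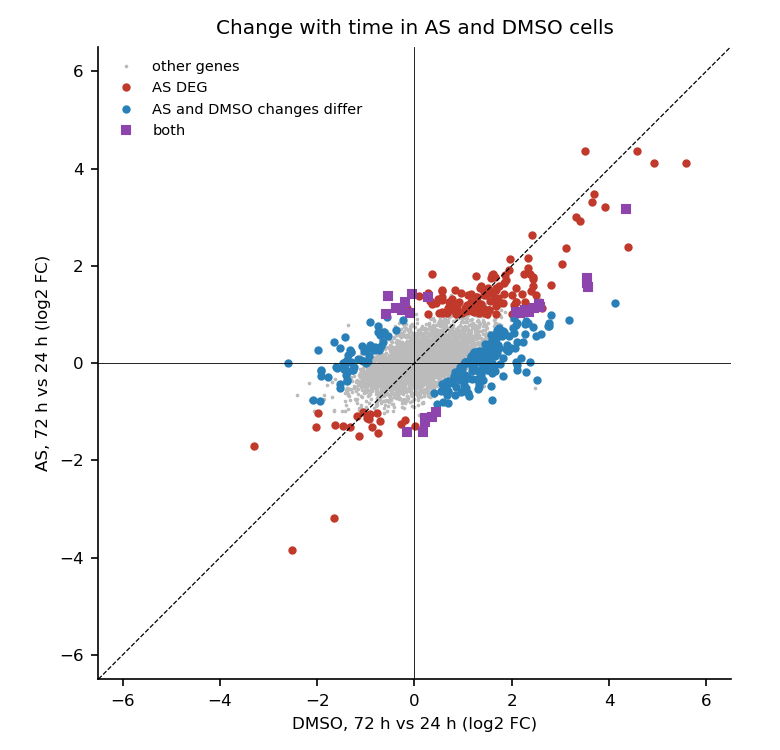
Log2 FC of 72 h over 24 h in AS cells (y axis) against that in DMSO cells (x axis) for 10744 genes at a mean of at least 1 CPM in the 6 AS libraries. Red circles are AS DEGs, blue circles genes whose change differed between AS and DMSO, purple squares both, and the dashed line marks equal changes. Of the 177 AS DEGs drawn, 27 are purple, and the blue points lie mainly where the DMSO change exceeds that in AS.

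The difference between both changes was tested gene by gene, and 325 genes passed the limits (1.74%), of which 82 were more positive in AS (0.439%) and 243 more negative (1.3%). With glmTreat 4 of the 325 were left, all of them more negative in AS. For 229 of the 325 the gene was a DEG in DMSO and not in AS, 179 with a rise in DMSO and 50 with a fall. In 170 of the 229 (74.2%) the change in AS was under 0.5 in size. The 229 were chosen in part for not being DEGs in AS, so that share follows largely from the choice. Of the AS DEGs, 31 were among the 325. In 16 of these the AS change exceeded the DMSO change and in 15 it fell short of it. Since these genes were DEGs by the same AS libraries, that split is a description. Paired genes account for 23 of the 325, 3 more positive and 20 more negative in AS.

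PSAT1, an enzyme of serine synthesis, showed the difference at high depth. With AS it was at 155, 180 and 164 CPM at 24 h and at 157, 172 and 169 CPM at 72 h, a log2 FC of -0.0025 (95% interval -0.191 to 0.186). With DMSO it was at 207, 218 and 208 CPM and then at 575, 661 and 689 CPM, a log2 FC of 1.60. The AS groups overlapped while the DMSO groups were far apart, and the changes differed by -1.60 ± 0.13 SE, adjusted p = 3.29e-19. SHMT2, which moves one-carbon units from serine into folate in mitochondria, had -0.043 in AS and 0.58 in DMSO, and the difference was -0.63 ± 0.14 SE, adjusted p = 0.000728. Of 16 genes of amino acid and one-carbon metabolism, 1 (AZIN1) passed in AS, and the change of 5 differed from DMSO by the adjusted p, which 8.32% of all genes tested did.

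IL23A, the p19 subunit of interleukin 23, was at 1.10, 1.08 and 1.13 CPM and 1.10, 1.07 and 1.20 CPM in AS cells, and at 1.42, 1.45 and 0.891 CPM and 5.00, 8.56 and 6.93 CPM in DMSO cells. The difference of its changes was -2.37 ± 0.45 SE, adjusted p = 9.16e-05. TRIB1, a pseudokinase adaptor that directs proteins to degradation, was at 26.1, 21.9 and 22.7 CPM and 30.5, 27.6 and 25.7 CPM in AS, and at 30.9, 27.3 and 26.7 CPM and 106, 108 and 105 CPM in DMSO. Its difference was -1.67 ± 0.33 SE, adjusted p = 0.00226, and within sequencing runs the adjusted p was 0.0904. For both genes the DMSO libraries at 72 h stood above every other library, while the AS groups overlapped. MYO1A, a brush border myosin, had a difference of -2.005 ± 0.41 SE, adjusted p = 0.000231, and TTC39B, a tetratricopeptide repeat protein, of -1.81 ± 0.29 SE, adjusted p = 2.52e-06, both with a rise in DMSO (2.60 and 1.65). In AS their log2 FC were 0.59 and -0.16, which did not pass.

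DEPTOR, an inhibitor of mTOR, was the PI3K axis gene past the limits. With AS it was at 1.36, 1.40 and 2.18 CPM and then at 1.00, 1.07 and 1.20 CPM, and with DMSO at 1.91, 1.92 and 1.25 CPM and then at 4.27, 2.82 and 3.47 CPM. It rose in DMSO by 1.04, its log2 FC in AS was -0.58 (adjusted p = 0.435), and the difference was -1.62 ± 0.42 SE, adjusted p = 0.00598. That call was lost without passage p128. A4GALT, described above as falling in AS, had a log2 FC of 0.47 in DMSO and differed by -1.31 ± 0.31 SE, adjusted p = 0.00285. That difference did not pass with all 36 libraries.

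The 3 paired genes with a more positive change in AS were SEPTIN3, GRTP1 and PLEC. PLEC, the cytolinker plectin, was at 1079, 954 and 946 CPM and 1178, 1245 and 1233 CPM in AS, and at 827, 928 and 905 CPM and 476, 370 and 517 CPM in DMSO. It fell in DMSO while its change in AS did not pass (log2 FC 0.30, 95% interval -0.0763 to 0.672), and the changes differed by 1.26 ± 0.26 SE, adjusted p = 0.00251. For SEPTIN3 the difference was 1.93 ± 0.53 SE, adjusted p = 0.0095, and for GRTP1, a TBC domain protein, 1.54 ± 0.52 SE, adjusted p = 0.0431. With few reads, the SEPTIN3 call was lost without passage p121 or p126 and the GRTP1 call without passage p126 or p128.

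**Figure D3:**
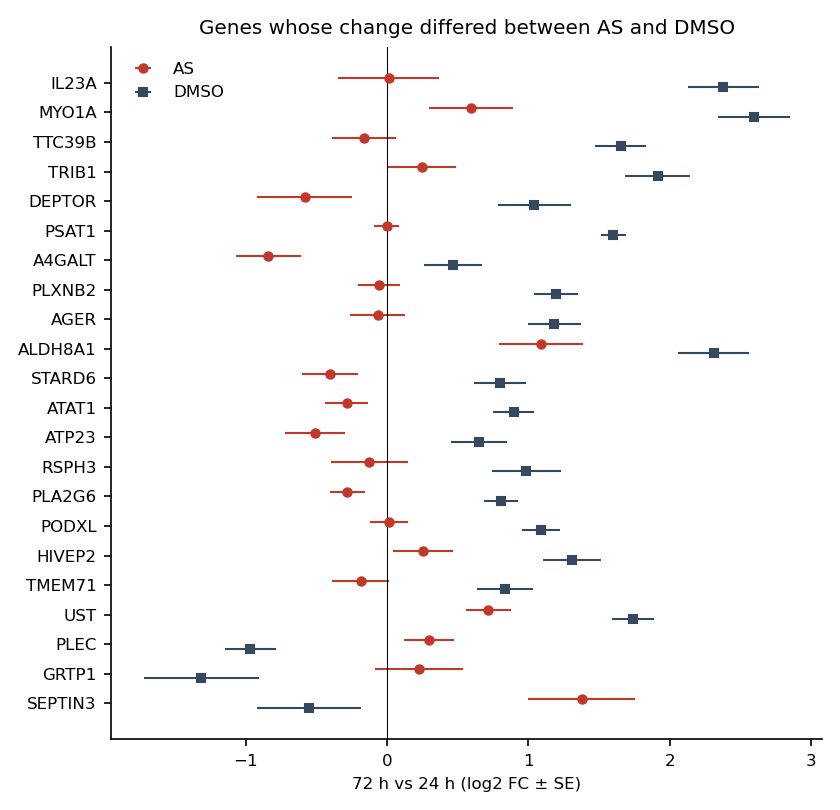
Log2 FC of 72 h over 24 h, with the SE of the fit as bars, in AS cells (red circles) and DMSO cells (dark blue squares) for the paired genes whose change differed and whose mean in the 6 AS libraries was at least 1 CPM. From IL23A to UST the DMSO value lies to the right of the AS value, and for PLEC, GRTP1 and SEPTIN3 to the left.

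Several gene lists with many calls in DMSO cells had few or 0 in AS. By the adjusted p alone, 5.93% of all genes tested passed in AS. In DMSO 26.7% passed, 13.8% with a rise and 12.9% with a fall. All genes tested include 5572 with hardly any reads in AS at both times, and 5309 in DMSO. The members of the ribosomal and ribosome biogenesis lists all had a mean of at least 1 CPM. The shares over all genes are therefore a low yardstick for these lists, in AS and in DMSO. Ribosomal proteins and translation factors had 0 of 16 members with a call in AS (median -0.00097), against 10 that rose and 2 that fell in DMSO (median 0.305). The change of 5 of these members differed between AS and DMSO by the adjusted p, which 8.32% of all genes tested did. PABPC1 and RPL8, with the most reads of them, had log2 FC of -0.20 and 0.081 in AS. Ribosome biogenesis had 0 of 15 in AS (median -0.0744), against 1 that rose and 8 that fell in DMSO (median -0.504), and the change of 5 members differed. PA2G4 and UTP20, where most of its reads lay, had -0.0095 and -0.25 in AS and -0.16 and -0.63 in DMSO. Ribosomal protein genes have many processed copies in mammalian genomes, so their counts are uncertain.

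Of the antigen presentation genes, 0 of 8 members passed in AS and their log2 FC lay between -0.17 and 0.076, whereas in DMSO 5 rose and 1 fell. The change of 5 of the 8 differed between AS and DMSO by the adjusted p, against 8.32% of all genes tested. DLA-DRA, the alpha chain of a major histocompatibility complex class II molecule, was at 3234, 3397 and 3525 CPM and 3671, 3059 and 3398 CPM in AS, and at 2702, 2672 and 2630 CPM and 4434, 4745 and 4163 CPM in DMSO. Its change differed by -0.74 ± 0.15 SE, adjusted p = 0.000494. DLA-DQA1 had log2 FC of -0.064 in AS and 0.55 in DMSO (difference -0.61 ± 0.17 SE, adjusted p = 0.0128). DLA genes are polymorphic and alike in sequence, so reads may be split among them.

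The cell cycle list of 33 genes had 0 that rose and 1 that fell in AS, TCF19, a G1/S factor, with -0.50. LMNB1 and MCM5, with the most reads, had -0.26 and -0.19. In DMSO 6 rose and 9 fell, with a median of -0.063. The change of only 3 of the 33 differed between AS and DMSO by the adjusted p, against 8.32% of all genes tested. The median difference over the list was 0.0234. The interferon list had IRF1 with a rise (0.32) and IFNGR1 with a fall among 11, and IRF5, the member with the most reads after IFNGR1, had -0.13. IRF1 did not pass with any 1 of the passages left out, without the passage term or with the sequencing run as a term. Of 13 cytokines and immune receptors, most of which are hardly expressed in these cells, LTA fell, and of 20 chromatin regulators HMGA1 fell, with BRD2 at -0.084. The citric acid cycle and respiratory chain had 0 of 15 in AS, with ATP5F1B at 0.021, and of 14 genes of oxidative stress and iron SQSTM1 rose and TXNRD1 fell. The lists were built by function from the paired genes, and a share of 5.93% of all genes passed in AS, so these counts say little about any single list.

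**Figure D4:**
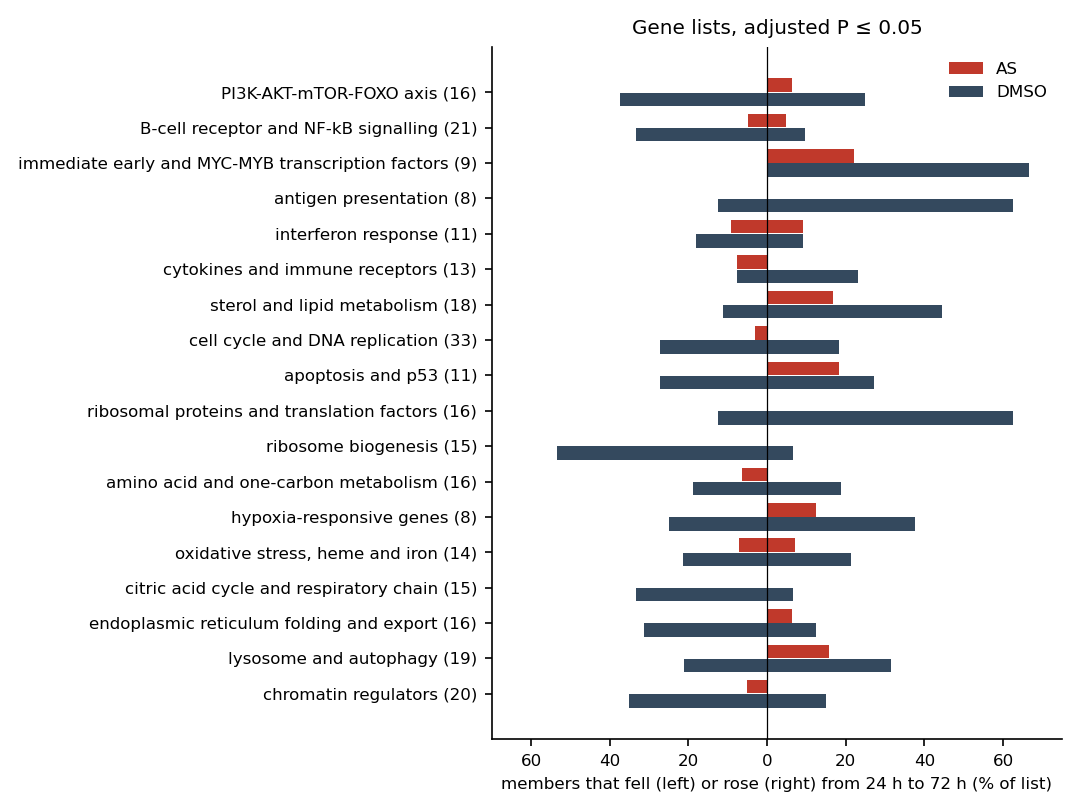
Share of the members of each gene list (number of members in brackets) that rose (to the right) or fell (to the left) from 24 h to 72 h at an adjusted p of at most 0.05, in AS cells (red) and DMSO cells (dark blue). The DMSO bars are longer than the AS bars in most lists, and antigen presentation, ribosomal proteins, ribosome biogenesis and the respiratory chain have no AS bar.

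The AS DEGs were also followed in the cells with Ibr or with both inhibitors, which share no library with the AS comparison. In Ibr cells, with 2 libraries at 72 h, the 177 genes that rose had a median change of 0.976 and the 44 that fell of -1.04, and 209 of the 221 (94.6%) went in the AS direction. In Ibr + AS cells the medians were 0.0314 and -0.595, and 57.0% of the 221 went in the AS direction. The share in Ibr + AS cells was 51.4% for the 177 that rose and 79.5% for the 44 that fell. Of all genes tested, 49.3% had a positive change in Ibr + AS cells and 46.6% in Ibr cells. The change of 3 genes differed between AS and Ibr past the limits (0.0161%), 0 of which are AS DEGs. That count was 14 without passage p121, 13 without passage p128, 1 with all 36 libraries and 0 by glmTreat. The change of 326 genes differed between AS and Ibr + AS (1.75%), and of 27 by glmTreat. Of the AS DEGs, 99 were among these 326, each with the larger change in AS. As the genes were chosen by their change in AS, part of such a count follows from the choice. Across the 10744 genes the changes of AS cells correlated with those of Ibr cells at r = 0.653 and with those of Ibr + AS cells at r = 0.103. P4HA2 had a log2 FC of 2.03 in Ibr and -0.10 in Ibr + AS, ACAT2 of 1.06 and 0.46, and IFNGR1 of -0.72 and 0.051.

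**Figure D5:**
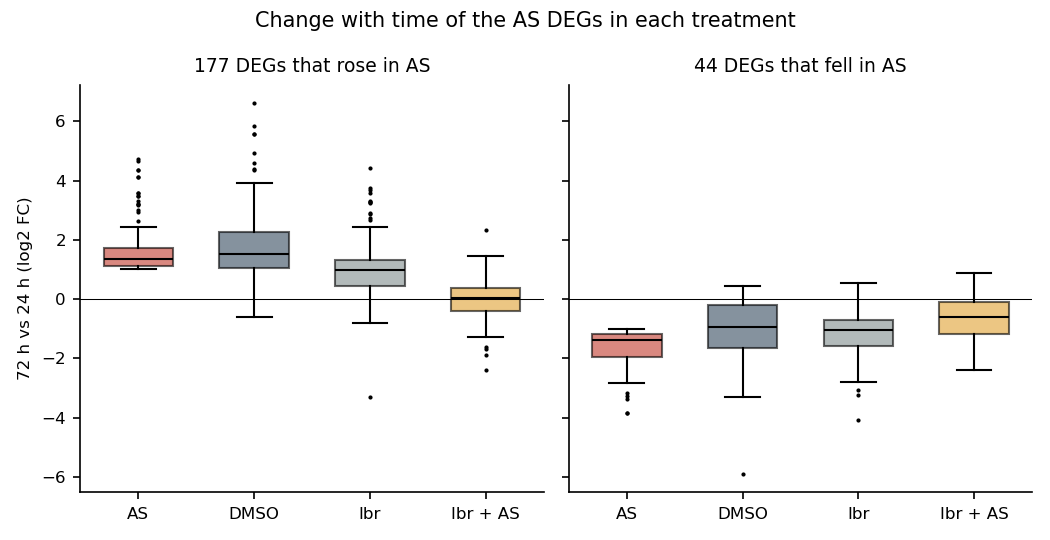
Log2 FC of 72 h over 24 h in AS, DMSO, Ibr and Ibr + AS cells for the 177 DEGs that rose (left) and the 44 that fell (right) in AS, the treatment that chose them. Boxes span the quartiles over genes with the median as a line, whiskers reach to 1.5 times the box length and dots are genes beyond. The medians of the genes that rose are 1.36, 1.51, 0.976 and 0.0314.

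Levels of these genes at both times show where the groups started. Relative to the mean of the DMSO 24 h libraries, the median log2 level of the 177 genes was -0.231 ± 0.068 (SD, n = 3 libraries) in AS at 24 h, 0.164 ± 0.069 at 48 h and 1.15 ± 0.08 at 72 h. In DMSO it was 0.884 ± 0.18 at 48 h and 1.43 ± 0.054 at 72 h. In Ibr it was -0.21 ± 0.056 at 24 h, 0.00933 ± 0.086 at 48 h and 0.774 ± 0.16 at 72 h, the last over 2 libraries. The start below DMSO and the late rise were thus found in Ibr cells too. In Ibr + AS it was 0.026 ± 0.13 at 24 h and 0.0313 ± 0.069 at 72 h. The AS libraries at 72 h, at 1.08 to 1.24, thus lay under the DMSO libraries of that time, at 1.38 to 1.49, without overlap, and above every Ibr + AS library. These levels describe genes picked by their rise in AS, and no test was made on them.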

How the data were processed

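RNA of CLBL-1 cells was sequenced in 36 libraries (12 groups of 3 passages). The authors mapped single-end reads of poly-A RNA with STAR 2.7.5a to the CanFam3.1 assembly and deposited raw read counts per Ensembl gene, with no normalization. Which strand column of STAR was kept is not given in the sources used here, so reads of overlapping genes on opposite strands cannot be told apart. For DMSO 24 h replicate 3 the title gives p126 and the passage label p128, which was used. Of the columns in the table, 0 lacked a sample.

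The tests were run with edgeR 4.0.16 under R 4.3.3. Of 30424 genes, the 18670 with at least 2 reads over 35 libraries were kept, Ibr 72 h replicate 3 being left out as by the authors. TMM factors and a robust quasi-likelihood fit on 12 groups plus passage number were used, and every comparison is a contrast of that fit with p-values adjusted over all genes by Benjamini and Hochberg. DESeq2 1.42.0 was an alternative. Intervals use the SE and 21 residual degrees of freedom, and log2 CPM a prior count of 1. Genes of all types were tested. The procedure was tested on simulated data. Read sampling alone did not account for the spread of replicates, with chi-square per degree of freedom of 3.02 to 10.1 between AS libraries.

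Same-numbered AS libraries come from the same passage by their labels, which is the pairing the passage term uses. After removal of group means, AS 24 h and 72 h libraries of 1 passage correlated by -0.006, 0.0781 and 0.0108.

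Symbols come from the names in the study's supplementary gene tables, of which a part was at hand. The reference table at hand lists 43286 genes and 0 of these identifiers, so no sequences or coordinates are given. Named are, among DEGs with a symbol, at least 1 CPM on average and 1 direction in all passages, up to 8 that rose and 8 that fell most, the 4 highest and 4 lowest differences from DMSO, list members past the limits with the 2 of most reads, and of DEGs with no symbol 2 in each direction. Other genes were chosen after their values were seen. A gene and a list that meet these rules are not reported here. The comparison, gene lists and rules were chosen with earlier results of these data known. Alternatives were other factors, filters, tools and library sets, no passage term, the sequencing run as a term, a test against the fold-change limit and each passage left out.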

Additional observations from a re-analysis of the deposited data

Results flagged for a closer look

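The change with time differed between AS cells and those of another treatment, by the test of the difference itself, for 325 genes against DMSO, 3 genes against Ibr and 326 genes against Ibr + AS. The 3 genes against Ibr rest on 2 Ibr libraries at 72 h, and 1050 of the 18670 genes tested had an unadjusted p under 0.05 there. With no difference at all, a share of about 0.05 of the genes tested would lie under that limit. Among the named genes, the change in AS exceeded that in DMSO by 1.93 on the log2 scale for SEPTIN3, 1.54 for GRTP1 and 1.26 for PLEC. It was more negative in AS by -2.37 for IL23A, -2.01 for MYO1A, -1.81 for TTC39B and -1.67 for TRIB1. GRTP1, SEPTIN3 and MYO1A had between 6 and 29 reads in each of the AS libraries at 24 h and 72 h. IL23A, just above 1 CPM in each of these AS libraries, had few reads there as well.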

How the results depend on the processing

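The 221 DEGs of AS between 24 h and 72 h were between 194 and 237 under DESeq2, RLE factors, filterByExpr, all 36 libraries, no passage block, the sequencing run as a term and fits on fewer libraries, and between 179 and 254 with 1 passage left out. RLE factors left the median change of all genes at -0.00065 in place of -0.00081. Without the replicate block 205 were found, 200 of them among the 221, and the 9 DEGs from 24 h to 48 h became 5. Pairing by passage moved no other count by over 1.5 times. A test of a change beyond the fold-change limit (glmTreat) left 32 DEGs for 24 h to 72 h, 0 for 24 h to 48 h, 12 for 48 h to 72 h and 252 for DMSO, and 4 differences from DMSO, 0 from Ibr and 27 from Ibr + AS. For 24 h to 48 h, where no call was left by glmTreat, edgeR's plain test gave 9 and DESeq2 10. The adjusted p alone, an alternative added after seeing the data, gave 1108, 61, 502 and 4985 genes, and 1553, 14 and 1260 differences. The count for 24 h to 48 h was 19 in a fit of the 9 AS libraries, 23 in 1 of 6 libraries and 10 to 24 with a passage left out. The 3 differences from Ibr became 1 with all 36 libraries, 5 in a fit of the AS and Ibr libraries and 2 to 14 with a passage left out. Leaving out 1 passage gave 69 to 105 DEGs for 48 h to 72 h, 906 to 954 for DMSO, 236 to 413 differences from DMSO and 276 to 420 from Ibr + AS. Of 75 named genes, 43 lost their call without passage p128, 28 without passage p126 and 15 without passage p121, and 0 changed direction under the alternatives tried; the cause was not tested. Counts of members that passed in the gene lists stayed within 1.5 times in 166 of 231 list and setting pairs. At this depth genes of few reads, such as SEPTIN3 and TPH2, are the least certain.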
